A study of Mus musculus with 8 samples.

Results

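The transcripts examined here were the 10 mast cell genes Cma1, Mcpt4, Tpsb2, Tpsab1, Cpa3, Mcpt1, Mcpt2, Fcer1a, Ms4a2 and Hdc, out of the 26008 genes listed for the colon of bone marrow chimeras. They were chosen by name, as granule proteases, IgE receptor chains and the histamine-forming enzyme, and the rule uses no measured value. Earlier results of these data were known when the genes were chosen. All 10 were found in the table by Ensembl identifier. RNA-seq had been performed on whole colon biopsies of 8 male C57BL/6JRj mice, each giving 1 library. The recipients were lethally irradiated at 7 weeks of age, engrafted with bone marrow from male donors 9 to 11 weeks old, and examined 18 weeks later. In 4 mice the donors were penk-/- (knockout of proenkephalin, the precursor of the enkephalins) and in 4 mice they were wild-type penk+/+, so that only marrow-derived cells lack the gene and the recipient tissue is wild-type in every mouse. Mast cells are long-lived in tissue, and whether those of these colons came from the donor or the recipient was not tested. Penk, which the wild-type tissue of both groups can express, does not check the labels: its level was 528 ± 67.5 normalized counts in the penk-/- mice and 541 ± 73.2 in the penk+/+ mice (SD, n = 4 each). Each library held between 33.1 and 50.7 M reads on genes.

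Mast cells are granulated hematopoietic cells of tissues that border the outside. They are armed by IgE bound to a high-affinity receptor, and on activation release histamine, proteases and lipid mediators. In mice, connective tissue mast cells lie in the submucosa, muscle and serosa and store the chymases Cma1 (Mcpt5) and Mcpt4, the tryptases Tpsb2 (Mcpt6) and Tpsab1 (Mcpt7) and the carboxypeptidase Cpa3. Mucosal mast cells lie in the epithelium and lamina propria and store the chymases Mcpt1 and Mcpt2. In bulk tissue, fewer mast cells and less RNA per mast cell cannot be told apart.

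The chymases form a cluster on chromosome 14 of GRCm39, where Cma1 lies at chr14:56178908-56182132, Mcpt1 at chr14:56255428-56257841, Mcpt2 at chr14:56279498-56282099 and Mcpt4 at chr14:56297086-56299770. Cpa3 lies at chr3:20269774-20296362, Tpsab1 at chr17:25562212-25564541 and Tpsb2 at chr17:25585170-25588079. The chymases are close copies of each other. The spliced transcripts of Mcpt1 and Mcpt4 were identical at 85.7% of aligned bases, with a longest shared run of 46 bases, and those of Mcpt1 and Mcpt2 at 82.2%, with a run of 49 bases. Cma1 was the more distant copy, at 71.4% with Mcpt4 and 67.0% with Mcpt1. The tryptases Tpsb2 and Tpsab1 were identical at 74.3%. Short reads from the shared stretches can be assigned to either copy, and the values of Mcpt1, Mcpt2 and Mcpt4 are uncertain to that extent.

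Promoter sequences of RefSeq (GRCm38.p6) were found for 7 of the 10 genes. Below are the 250 bases before the annotated start of Cma1 (chr14:55944676-55944925, minus strand), Mcpt4 (chr14:56062311-56062560, minus strand), Mcpt1 (chr14:56017714-56017963, plus strand) and Cpa3 (chr3:20242182-20242431, minus strand), the proteases on which the results turn. They are written along the gene, and capitals mark the letters AGATAA or TGATAA or AGATAG or TGATAG, which match the GATA motif, on either strand.
Cma1: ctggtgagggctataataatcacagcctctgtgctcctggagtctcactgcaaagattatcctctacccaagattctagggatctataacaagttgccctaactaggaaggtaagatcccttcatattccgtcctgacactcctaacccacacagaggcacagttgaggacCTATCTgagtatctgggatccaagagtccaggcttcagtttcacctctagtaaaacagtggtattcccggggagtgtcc
Mcpt4: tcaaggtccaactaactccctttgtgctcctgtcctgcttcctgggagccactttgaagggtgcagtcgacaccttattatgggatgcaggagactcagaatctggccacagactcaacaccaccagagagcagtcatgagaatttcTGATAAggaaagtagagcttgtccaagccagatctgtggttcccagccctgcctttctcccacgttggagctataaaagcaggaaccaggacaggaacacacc
Mcpt1: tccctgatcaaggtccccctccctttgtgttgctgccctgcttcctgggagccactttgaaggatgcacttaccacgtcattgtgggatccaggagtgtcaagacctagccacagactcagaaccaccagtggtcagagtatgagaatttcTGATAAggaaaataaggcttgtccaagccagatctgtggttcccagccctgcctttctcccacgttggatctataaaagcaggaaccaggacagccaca
Cpa3: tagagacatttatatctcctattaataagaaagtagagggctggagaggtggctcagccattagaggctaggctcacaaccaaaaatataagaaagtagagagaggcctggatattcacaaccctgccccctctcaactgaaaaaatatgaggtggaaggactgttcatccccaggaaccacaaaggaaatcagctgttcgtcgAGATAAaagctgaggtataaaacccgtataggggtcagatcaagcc
Each of the 4 windows held 1 match, beginning 79 bases before the start in Cma1, 103 in Mcpt4, 99 in Mcpt1 and 46 in Cpa3. All 7 members with a promoter entry held at least 1 match, against 26.5% of 32851 RefSeq promoters of the same length. Ms4a2 held 3. The E-box letters CATGTG or CACGTG, searched on both strands because the factor Mitf binds such elements, were present in Fcer1a alone of the 7, against 17.6% of all promoters. The windows of Mcpt4 and Mcpt1 were identical at 86.4% of 242 aligned bases and shared a run of 53 bases. A match in these letters is a description of the sequence and not a site.

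The 10 genes were scarce in the colon, with the exception of Cma1. Of 3653 reads assigned to the 10 genes over the 8 libraries, 2760 belonged to Cma1 and 15 each to Tpsab1 and Ms4a2. Per kilobase of exon, Cma1 averaged 315 normalized counts over the 8 libraries (SD 120, range 154 to 529). Mcpt4 followed with 15.6 (SD 14.8), Cpa3 with 12.9 (SD 9.12), Mcpt1 with 11.9 (SD 5.05), Tpsb2 with 8.62 (SD 5.57) and Mcpt2 with 5.48 (SD 3.1). Hdc, which encodes histidine decarboxylase, had 3.67 (SD 1.14) per kilobase, Fcer1a 2.05 (SD 2.84), Tpsab1 0.781 (SD 0.693) and Ms4a2 0.594 (SD 0.623). Cma1 was above Mcpt4 in 8 of 8 libraries. The genes from Mcpt4 down to Hdc could not be ordered among neighbours, since each was above the next in only 4 or 5 of 8 libraries. Hdc was above Fcer1a in 6, and Fcer1a, Tpsab1 and Ms4a2 could not be ordered either (3 and 5 of 8 libraries). The per-kilobase level of Cma1 was between 10.4 and 109 times that of Cpa3 in the same library (median 26.7).

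The defining receptor of the lineage was close to the limit of detection. Fcer1a, the alpha chain that binds IgE, had 16 reads in all, and Ms4a2, its beta chain, 15. A value of 0 was listed for 10 of the 80 values of the 10 genes. A count of 0 allows up to 3 reads, that is 2.85 to 3.73 normalized counts in the libraries concerned, a limit that covers counting error only. With a filter that kept genes whose mean reached 10 normalized counts, 6 of the 10 genes entered the test of all genes (limma, 19127 genes). Tpsab1, Mcpt2, Fcer1a and Ms4a2 did not, and are given by their values and by the exact permutation test alone.

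The question put to these genes was whether they differed between colons with penk-/- and penk+/+ marrow-derived cells. No member differed at an adjusted p below 0.05, the same as for all 19127 genes, of which 0% passed it (0 genes, with 9.63% at an unadjusted p below 0.05). At the unadjusted limit, 1 of the 6 tested members passed, Cma1. Of the 6, 5 had a log2 difference above 0 (median of the 6, 0.53), against 9780 of the 19127 genes (median 0.01). The exact permutation test over the 70 ways of dividing the libraries can give no two-sided p below 0.0286. In none of the 10 genes were the groups free of overlap, against 5.63% of the 19127 genes.

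**Figure D1:**
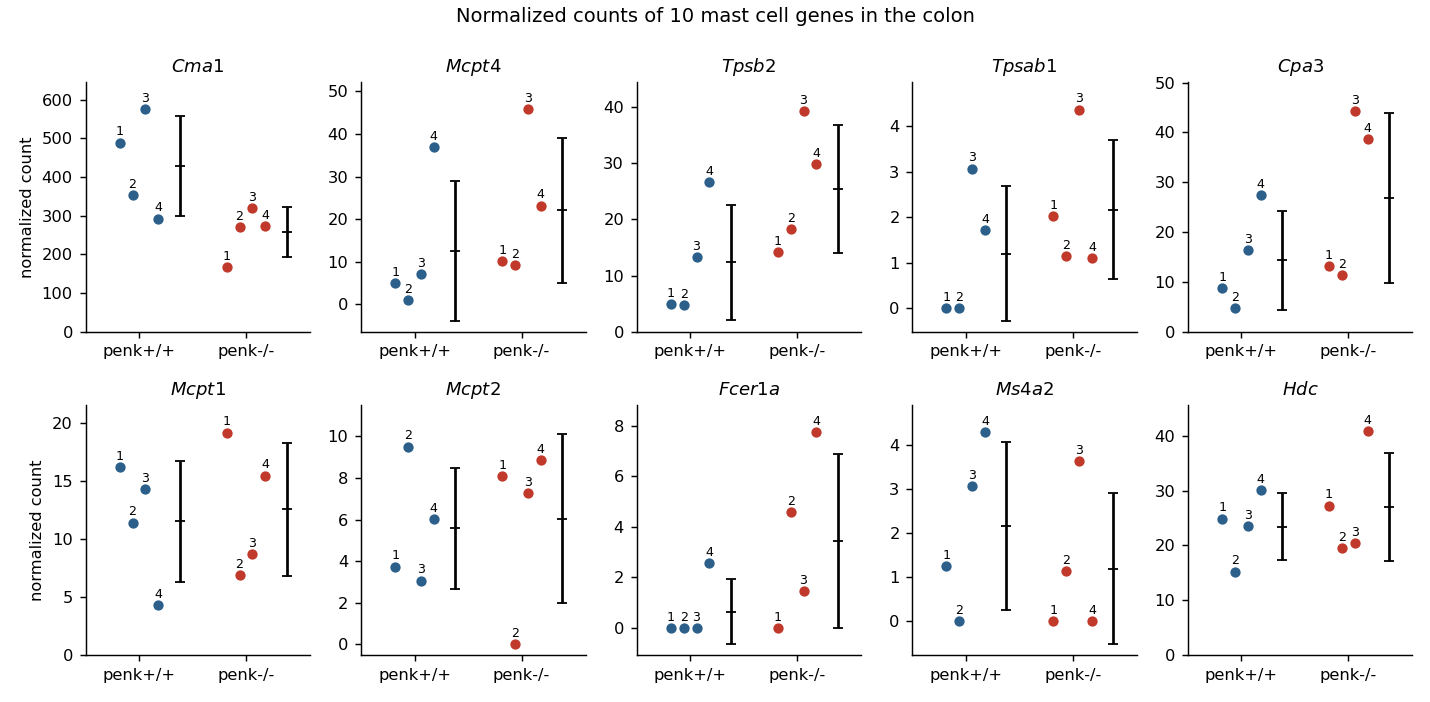
Normalized counts of the 10 genes in each library, with penk+/+ in blue and penk-/- in red, replicate numbers above the points, and the mean and SD of each group (n = 4) in black at its right. Each gene has its own vertical scale. Cma1 lies lower in penk-/- mice except for an overlap at replicate 4 of penk+/+, while Mcpt4, Tpsb2 and Cpa3 are highest in replicates 3 and 4 of penk-/- and replicate 4 of penk+/+.

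Among the connective tissue proteases, Cma1 had a direction of its own. In penk-/- mice, replicates 1 to 4, it had 168, 270.2, 319.8 and 274 normalized counts, and in penk+/+ mice 489, 354, 576 and 292. All 4 penk-/- libraries were below the median of the penk+/+ libraries, and the groups overlapped through penk+/+ replicate 4 alone. The means were 258 ± 64.3 and 428 ± 129 (SD, n = 4 each), a log2 difference of -0.72 (SE 0.25, 95% interval -1.28 to -0.16). This was past the unadjusted limit (limma, p = 0.0174) but not the adjusted one (adjusted p = 0.429), and the exact permutation test gave p = 0.0571. Of all genes, 5.33% were lower in penk-/- mice at an unadjusted p below 0.05. At this depth Cma1 was well covered, with 166 to 564 reads per library, so that counting error contributed 5.38% to a spread between mice of 24.9% (penk-/-) and 30.1% (penk+/+). Without each library in turn the log2 difference stayed between -0.88 and -0.52.

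The other chymase of connective tissue mast cells, Mcpt4, had 10.1, 9.16, 45.8 and 23.2 normalized counts in penk-/- replicates 1 to 4. In penk+/+ replicates 1 to 4 it had 4.98, 0.951, 7.15 and 36.9. Replicate 3 of penk-/- and replicate 4 of penk+/+ stood above the other libraries, and the groups overlapped through penk+/+ replicate 4 alone. The log2 difference was 1.29 (SE 0.84, 95% interval -0.61 to 3.18, adjusted p = 0.664, exact permutation p = 0.229). Single libraries decided its size, which was 0.62 without penk+/+ replicate 2, 0.85 without penk-/- replicate 3 and 2.05 without penk+/+ replicate 4, and it was 0.68 with a pseudocount of 8. Its difference thus had the opposite sign to that of Cma1, with an interval that includes 0.

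Tpsb2, the main tryptase of these cells, had 14.1, 18.3, 39.2 and 29.8 normalized counts in penk-/- mice and 4.98, 4.75, 13.3 and 26.6 in penk+/+ mice. All 4 penk-/- libraries were above the penk+/+ median, and replicate 4 of penk+/+ lay within the penk-/- range. The log2 difference was 1.19 (SE 0.54, 95% interval -0.03 to 2.40, limma p = 0.054, adjusted p = 0.529, exact permutation p = 0.114), and 0.77 with a pseudocount of 8. Tpsab1, a tryptase gene that some laboratory strains carry in a defective form, including C57BL/6, was near 0 in both groups. It had 2, 1, 6 and 1 reads in the penk-/- libraries and 0, 0, 3 and 2 in the penk+/+ libraries (exact permutation p = 0.257).

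Cpa3, the carboxypeptidase that trims peptides within the granule, had 13.1, 11.4, 44.3 and 38.7 normalized counts in penk-/- mice. In penk+/+ mice it had 8.71, 4.75, 16.4 and 27.4. Replicates 3 and 4 of penk-/- were the highest of all libraries, and replicates 1 and 2 lay within the penk+/+ range. The log2 difference was 0.88 (SE 0.59, 95% interval -0.44 to 2.20, adjusted p = 0.672, exact permutation p = 0.2). It was 0.49 without penk+/+ replicate 2 and 0.57 without penk-/- replicate 3. The gene overlaps a long non-coding RNA on the opposite strand, Gm31320, and since the strand setting of the counting is not given in the sources used here, reads from that gene cannot be set apart. For Cpa3, Mcpt4 and Tpsb2, counting error (21.1%, 22.6% and 22.1%) was smaller than the spread between mice, which was 44.8% to 132%.

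**Figure D2:**
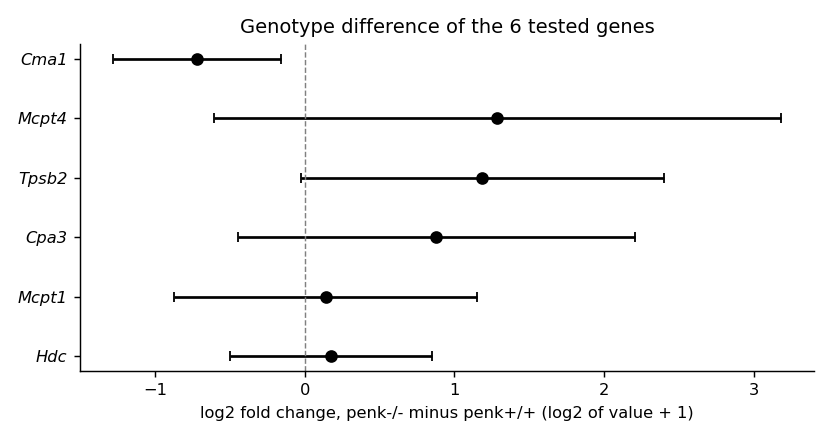
Log2 fold change of the 6 tested genes (horizontal axis, penk-/- minus penk+/+, on log2 of value + 1), with bars for the 95% interval of the limma fit on 4 libraries a group. The interval of Cma1 lies below 0 (-1.28 to -0.16), and those of the other 5 genes include 0.

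The mucosal proteases had nearly equal means in the genotypes, 12.6 ± 5.76 normalized counts in penk-/- against 11.5 ± 5.22 in penk+/+ mice for Mcpt1 and 6.05 ± 4.08 against 5.58 ± 2.91 for Mcpt2 (SD, n = 4). In single libraries Mcpt1 had 19.2, 6.87, 8.72 and 15.5 normalized counts in penk-/- mice and 16.2, 11.4, 14.3 and 4.29 in penk+/+ mice. The groups covered nearly the same range, with a log2 difference of 0.14 (SE 0.45, 95% interval -0.87 to 1.15, adjusted p = 0.952, exact permutation p = 0.8286). Its sign turned when penk-/- replicate 1 (-0.09) or penk+/+ replicate 4 (-0.23) was left out. Mcpt2 had 8.08, 0, 7.27 and 8.84 normalized counts in penk-/- mice and 3.73, 9.51, 3.07 and 6.00 in penk+/+ mice, and only penk-/- replicate 2 gave no read. The mean difference of Mcpt2 on the log2 scale was -0.23 (exact permutation p = 0.914). Its sign turned without that library (0.56), without penk+/+ replicate 2 (0.024) and with a pseudocount of 8 (0.014). With a pseudocount of 0.1 the difference of Mcpt2 was -0.93.

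The chymases of the 2 classes were then compared within each library by the log2 ratio of Mcpt4 to Mcpt1, which leaves out Cma1 and hardly depends on the scaling of the library. It was -0.86, 0.37, 2.27 and 0.56 in penk-/- replicates 1 to 4 and -1.52, -2.67, -0.91 and 2.84 in penk+/+ replicates 1 to 4. Mcpt4 thus exceeded Mcpt1 in 3 penk-/- libraries and in replicate 4 of penk+/+, and was below it in the other libraries. The mean was 0.58 ± 1.29 in penk-/- and -0.57 ± 2.38 in penk+/+ mice (SD, n = 4 each), a difference of 1.15 (exact permutation p = 0.429, adjusted over 2 ratios p = 0.429). Single libraries moved this difference both ways. It was 0.45 without penk+/+ replicate 2 (exact permutation p = 0.714) and 0.59 without penk-/- replicate 3 (exact permutation p = 0.714), against 2.28 without penk+/+ replicate 4 (exact permutation p = 0.0571, the smallest that 3 libraries against 4 allow). The log2 ratio of Mcpt4 to Mcpt2 was 1.86 ± 1.34 in penk-/- and 0.34 ± 2.04 in penk+/+ mice, a difference of 1.52 (exact permutation p = 0.229, adjusted p = 0.429), which was 0.60 without penk+/+ replicate 2. With a pseudocount of 8 the differences shrank to 0.61 for Mcpt1 and 0.67 for Mcpt2, and with 0.1 they grew to 1.375 and 2.47. The direction depends on which connective tissue protease is taken, since Cma1 was lower on average in penk-/- mice.

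**Figure D3:**
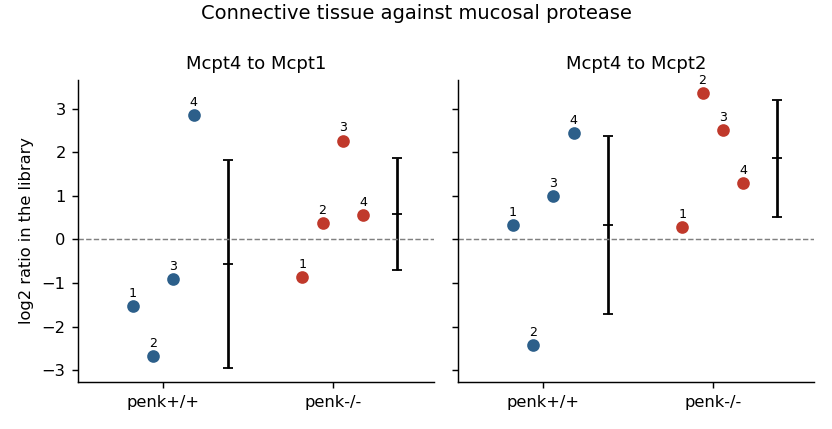
Log2 ratio of Mcpt4 to Mcpt1 (left) and of Mcpt4 to Mcpt2 (right) in each library, with penk+/+ in blue, penk-/- in red, replicate numbers above the points and the mean and SD (n = 4) in black. Points of both groups lie above and below 0 in the left panel, where penk+/+ replicate 4 is the highest at 2.84.

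The summed normalized counts of all 5 connective tissue proteases were 207, 310.2, 454 and 367 in penk-/- mice and 508, 364, 616 and 385 in penk+/+ mice (means 334 ± 103 and 468 ± 117, SD, n = 4), of which Cma1 made up 70.5% to 97.1%. The sum was thus lower on average in penk-/- mice, with groups that overlapped. It mainly reflects Cma1, and which cells the reads of Cma1 came from was not tested. Over the 8 libraries, r of Cma1 was -0.18 with Cpa3, -0.30 with Mcpt4 and -0.38 with Tpsb2. Without Cma1, the summed normalized counts of Mcpt4, Tpsb2, Tpsab1 and Cpa3 were higher on average in penk-/- mice (76.5 ± 45.6 against 40.4 ± 36.9). They were 39.4, 40.1, 133.7 and 92.8 in penk-/- mice and 18.7, 10.5, 39.9 and 92.6 in penk+/+ mice. The penk+/+ mean thus rested largely on replicate 4. The summed normalized counts of Mcpt1 and Mcpt2 were 27.3, 6.87, 15.99 and 24.3 in penk-/- mice and 19.9, 20.9, 17.4 and 10.3 in penk+/+ mice. The sum without Cma1 ranged from 10.5 to 133.7 over the libraries, while the mucosal sum ranged from 6.87 to 27.3 and had its lowest value in penk-/- replicate 2.

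The genes of IgE binding and of histamine synthesis did not separate the genotypes. Fcer1a had 0, 4, 2 and 7 reads in the penk-/- libraries and 0, 0, 0 and 3 in the penk+/+ libraries (exact permutation p = 0.257). Ms4a2 had 0, 1, 5 and 0 reads in the penk-/- libraries and 1, 0, 3 and 5 in the penk+/+ libraries (exact permutation p = 0.486). With so few reads no fold is given here, and their log2 differences appear only where the dependence on the processing is described. Hdc had 27.3, 19.5, 20.4 and 40.9 normalized counts in penk-/- mice and 24.9, 15.2, 23.5 and 30.0 in penk+/+ mice. Its groups overlapped, with a log2 difference of 0.17 (SE 0.30, 95% interval -0.50 to 0.85, adjusted p = 0.896, exact permutation p = 0.6). The sign of this difference turned without penk-/- replicate 4 (-0.040) or penk+/+ replicate 2 (-0.0097). Hdc is also expressed by other cells, among them myeloid cells, so that its reads cannot be assigned to mast cells alone.

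Across the 8 libraries the level of each other member was correlated with that of Cpa3. Mcpt4 followed it closely (Pearson r = 0.95, permutation over all pairings p = 8.43e-04, adjusted over 9 relations p = 0.00525, and Spearman rho = 0.90, permutation p = 0.00456, adjusted p = 0.0205). So did Tpsb2 (r = 0.93, permutation p = 0.00117, adjusted p = 0.00525, rho = 0.90, permutation p = 0.00456, adjusted p = 0.0205). Without the 2 libraries farthest from the median of Cpa3, penk-/- replicate 3 and penk+/+ replicate 2, r was 0.87 for Mcpt4 and 0.85 for Tpsb2 over 6 libraries, and the adjusted permutation p rose to 0.108 for each. When each genotype was centred on its own mean, r was 0.93 and 0.92. Among 19126 other genes, Mcpt4 was the third and Tpsb2 the seventh most like Cpa3.

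No correlation of Cma1 with Cpa3 was found (r = -0.18, permutation p = 0.669, adjusted p = 0.669, rho = -0.17, permutation p = 0.703), and Cma1 ranked 12103rd in likeness to Cpa3 among the 19126 other genes. None was found for Mcpt1 (r = -0.25, permutation p = 0.557, adjusted p = 0.669, rho = -0.21, permutation p = 0.619), whose r turned to 0.27 without penk-/- replicate 3 and penk+/+ replicate 4. Tpsab1 had r = 0.73 (permutation p = 0.0425, adjusted p = 0.127, rho = 0.68), Hdc 0.61 (permutation p = 0.104, adjusted p = 0.213, rho = 0.50) and Fcer1a 0.60 (permutation p = 0.119, adjusted p = 0.213, rho = 0.53). For Ms4a2 r was 0.43 (permutation p = 0.278, adjusted p = 0.417, rho = 0.44), and for Mcpt2 0.21 (permutation p = 0.638, adjusted p = 0.669, rho = 0.05). The coefficients were not tested against each other.

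**Figure D4:**
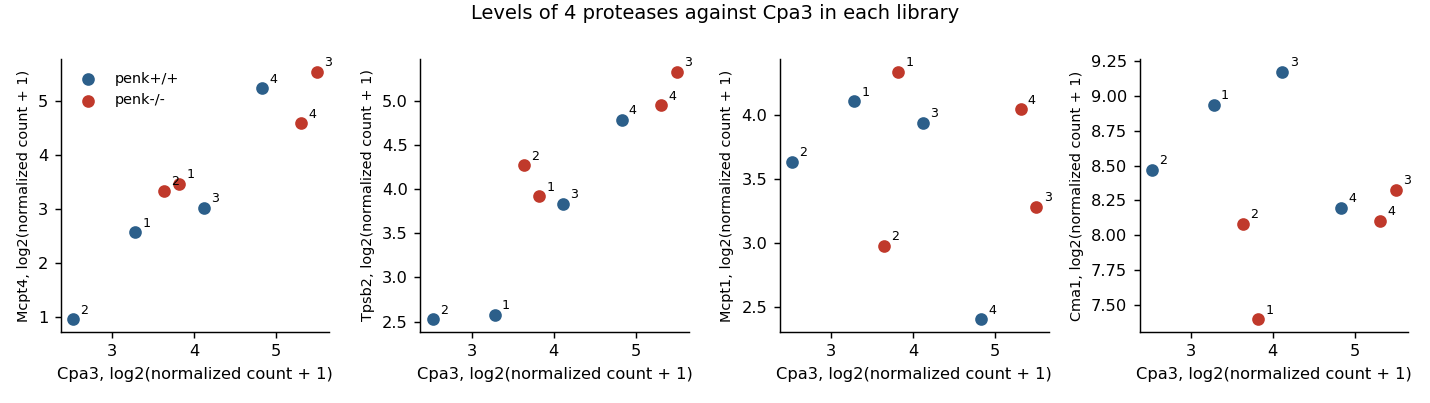
Level of Mcpt4, Tpsb2, Mcpt1 and Cma1 (vertical axes) against that of Cpa3 (horizontal axis) in the 8 libraries, all as log2(normalized count + 1), with penk+/+ in blue, penk-/- in red and replicate numbers beside the points. Mcpt4 and Tpsb2 rise along with Cpa3 (r = 0.95 and 0.93), whereas r was -0.25 for Mcpt1 and -0.18 for Cma1.

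The libraries in which the Cpa3 group was high also differed in other tissue RNA. Pbsn, a secretory gene of the prostate, reached 105658 normalized counts in penk-/- replicate 3 and 111024 in penk+/+ replicate 4, and was at most 13425 in the others, down to 0 in penk-/- replicate 1 and penk+/+ replicate 3. Of the 4 keratins of stratified epithelium listed, Krt5 had 200 and 173 normalized counts in these libraries and at most 51.0 elsewhere, whereas Krt10 and Krt14 did not set them apart. Krt10, the most abundant, had 85.8 and 102 against 87.0 to 128 elsewhere, and Krt14 82.1 and 87.5 against 38.04 to 88.9. Krt1 had 7.27 and 6.00 against 0.95 to 5.72. Fat markers, of which Fabp4 was the most abundant, summed to 8617 in penk-/- replicate 3 and 3209 in penk+/+ replicate 4, against 831 to 2632 elsewhere. Replicate 4 of penk-/-, the library with the second highest Cpa3, had 4803 normalized counts of Pbsn, 11.05 of Krt5 and a fat sum of 1098. The part of fat and of stratified epithelium in the levels of the members was not tested. In the 6 libraries without the 2 rich in Pbsn, r with Cpa3 was 0.93 for Mcpt4 and 0.88 for Tpsb2 (adjusted permutation p = 0.0917 for each), and 0.91 for Hdc. In these 6 libraries the log2 difference was -0.999 for Cma1, 1.40 for Tpsb2 and 0.95 for Cpa3, each as large as in all 8 or larger, and the mean of Mcpt4 fell under the filter.

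The 10 genes outside the list with the pattern most like Cpa3, by Pearson r of log2(normalized count + 1) over the 8 libraries, were Sprtn (0.99), Palm3 (0.97), Gm33280 (0.94), Siah2 (0.94), Zfp583 (0.94), 2210406O10Rik (0.93), C4a (0.93), Zbtb21 (0.93), Cep70 (0.92) and 4930455G09Rik (0.92). Sprtn, a protease that repairs DNA-protein crosslinks, moved within a narrow range, from 1063 to 1353 normalized counts. Palm3 ranged from 3.80 to 23.3 normalized counts, a narrower range than that of Cpa3. Siah2, a ubiquitin ligase, ranged from 148 to 348, and C4a, a complement component, from 41.1 to 69.0. With 8 libraries and 19126 genes, high coefficients are found for many genes, and these are given as a description.

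The wider mast cell pathway was described by a list of 57 genes, of which 50 were in the table and 47 were tested. None passed an adjusted p below 0.05. At the unadjusted limit 5 passed (10.6%, against 9.63% of all genes), 3 higher in penk-/- mice (Kitl, Mitf and Plcg1) and 2 lower (Hpgds and Cd200r3). For all genes the shares were 4.3% higher and 5.33% lower. In direction, 33 of the 47 were higher and 14 lower in penk-/- mice, with a median log2 difference of 0.11 against 0.01 for all genes. The groups did not overlap for 2 of the 47 genes, 4.26% against 5.63% of all genes, and both lay higher in penk-/- mice (2.89% of all genes).

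Among growth factors and receptors, Kitl, the stem cell factor on which mast cells depend, had 6589, 6001, 5791 and 5965 normalized counts in penk-/- mice and 5233, 4836, 5667 and 4647 in penk+/+ mice. Each penk-/- library was above every penk+/+ library, by a small margin. The log2 difference was 0.26 (SE 0.07, limma p = 0.00662, adjusted p = 0.359, exact permutation p = 0.0286, the smallest possible). Its receptor Kit, which interstitial cells of Cajal also carry, ranged from 2229 to 2860 in penk-/- and from 2153 to 3124 in penk+/+ mice (log2 difference -0.07, SE 0.12). Ano1, the channel of those pacemaker cells, averaged 16835 normalized counts, so that the reads of Kit cannot be assigned to mast cells. Il1rl1, the IL-33 receptor, had 42.4, 45.8, 112.7 and 48.6 normalized counts in penk-/- mice and 63.5, 75.1, 101.2 and 72.9 in penk+/+ mice (log2 difference -0.42, SE 0.31, adjusted p = 0.703, and -0.75 without penk-/- replicate 3). Cd200r3, an activating receptor of mast cells and basophils, had 26.3, 12.6, 11.6 and 17.7 against 29.9, 33.3, 30.7 and 24.0 (log2 difference -0.82, SE 0.28, exact permutation p = 0.0571, limma adjusted p = 0.425), with an overlap of penk-/- replicate 1 and penk+/+ replicate 4.

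Mrgprb2, the receptor through which connective tissue mast cells respond to peptides and cationic drugs, was below the filter. It had 2.02, 0, 5.09 and 1.10 normalized counts in penk-/- mice and 0, 0, 0 and 4.29 in penk+/+ mice. The related Mrgprb1 had 0, 2.29, 13.8 and 4.42 against 1.24, 1.90, 3.07 and 13.7. Both were highest in the libraries rich in Pbsn. F2rl1, the receptor PAR-2 that tryptase cleaves, had a log2 difference of -0.22 (SE 0.16, adjusted p = 0.705, and -0.087 without penk-/- replicate 3) and lay between 3581 and 6745 normalized counts.

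**Figure D5:**
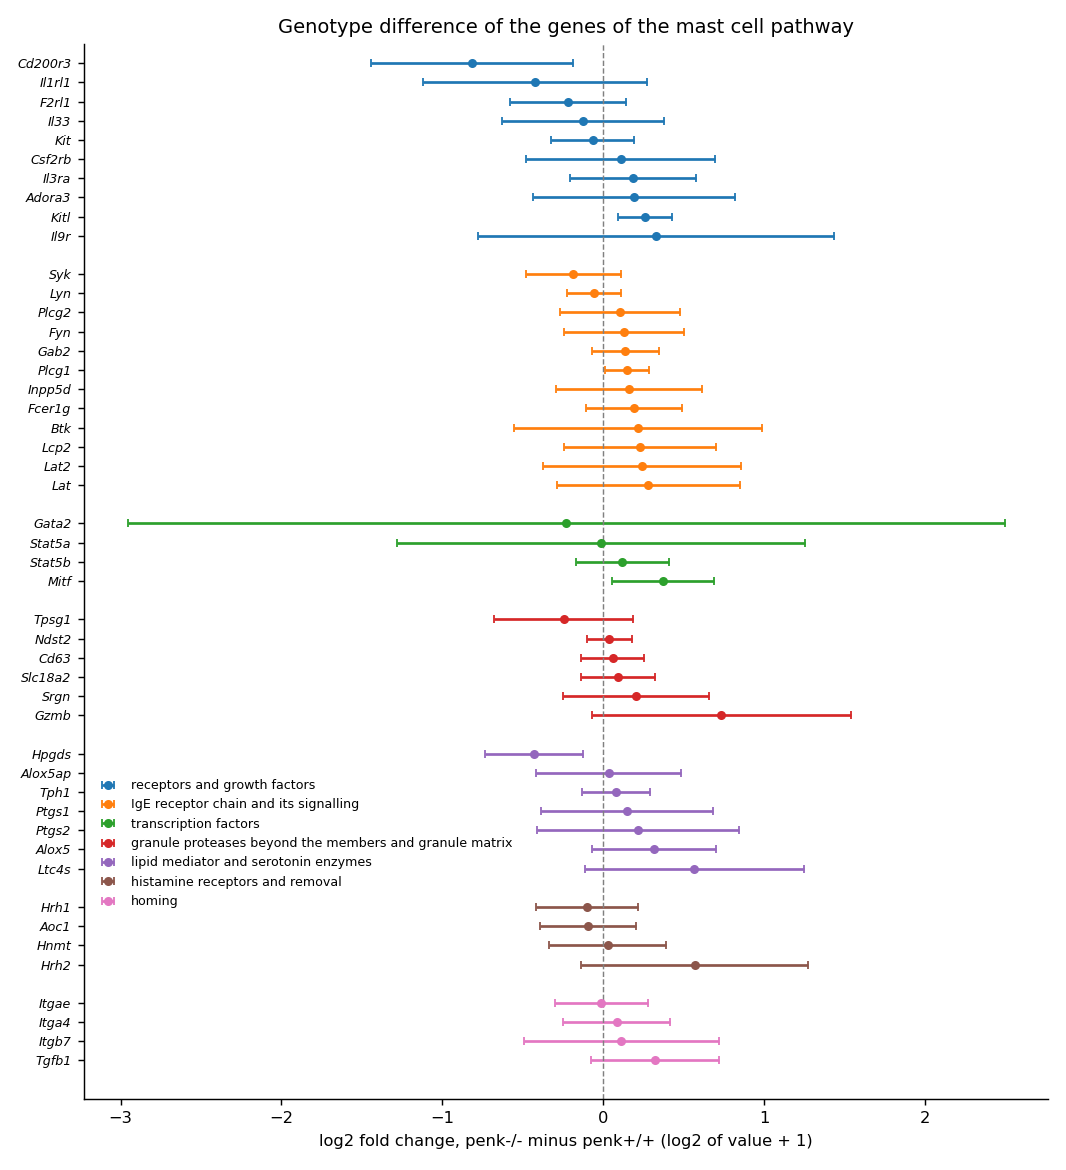
Log2 fold change of the 47 tested genes of the mast cell pathway (horizontal axis, penk-/- minus penk+/+, on log2 of value + 1), grouped and coloured by role, with bars for the 95% interval of the limma fit on 4 libraries a group. Intervals that leave out 0 are those of Cd200r3 and Hpgds (lower) and of Kitl, Mitf and Plcg1 (higher), and Gata2 has the widest interval.

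Of the transcription factors, Mitf, which activates protease genes in mast cells, had 227, 237, 281 and 247 normalized counts in penk-/- mice and 151, 190.2, 228 and 203 in penk+/+ mice (log2 difference 0.37, SE 0.14, exact permutation p = 0.0571, limma adjusted p = 0.453). The lowest penk-/- value was just under the highest penk+/+ value. Gata2, required for mast cell identity, had 52.5, 255, 2025 and 186 against 304, 167, 77.7 and 2429. Its level followed the libraries rich in Pbsn, the 2 highest by far, and gave no comparison of the genotypes (log2 difference -0.23, SE 1.21).

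In the signalling group, Fcer1g, the gamma chain that the IgE receptor shares with other Fc receptors, had a log2 difference of 0.19 (SE 0.13, adjusted p = 0.685). It ranged from 222 to 292 normalized counts in penk-/- mice and from 192 to 262 in penk+/+ mice. Plcg1, a phospholipase downstream of many receptors, was higher in each penk-/- library than in every penk+/+ library, with 1561 to 1781 normalized counts against 1462 to 1554 (log2 difference 0.15, SE 0.06, exact permutation p = 0.0286, limma adjusted p = 0.49). All 12 genes of this group were tested, and 10 had a log2 difference above 0 (9780 of 19127 for all genes). Many of them are general leukocyte genes. Beside them, the macrophage markers had a log2 difference above 0 in 7 of 7 genes (median 0.28) and the pan-hematopoietic markers in 4 of 4 (median 0.15), and the part of these cells in the values was not tested.

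For the granule matrix, Srgn, the proteoglycan core that holds the proteases, had a log2 difference of 0.21 (SE 0.20, and 0.0080 without penk+/+ replicate 1), Ndst2, which sulfates heparin, 0.04 (SE 0.06), and Slc18a2, the carrier that loads amines into granules, 0.09 (SE 0.10). Cma2, Mcpt8 and Mcpt9 are not analysed here. For lipid mediators, Hpgds, the hematopoietic prostaglandin D synthase, had 768, 863, 756 and 894 normalized counts in penk-/- mice and 1303, 1206, 1144 and 825 in penk+/+ mice. Replicate 4 of penk+/+ was again the library that overlapped (log2 difference -0.43, SE 0.14, exact permutation p = 0.0857, limma adjusted p = 0.4). Ltc4s, the leukotriene C4 synthase, had a log2 difference of 0.57 (SE 0.30, adjusted p = 0.597) at 6.13 to 18.8 normalized counts. Tph1, the serotonin-forming enzyme, which enterochromaffin cells also express, had 0.08 (SE 0.09). The histamine receptors Hrh1 and Hrh2 had log2 differences of -0.10 (SE 0.14) and 0.57 (SE 0.31), and Hnmt, which methylates histamine, 0.03 (SE 0.16). Without penk-/- replicate 3 the signs of Hrh1 (0.0024) and Hnmt (-0.093) turned, and Hrh2 was 0.31 without penk+/+ replicate 1.

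Markers of other cells were read beside these values. The pan-hematopoietic genes Ptprc, Laptm5, Coro1a and Cd53 summed to 2674 ± 665 normalized counts in penk-/- and 2385 ± 781 in penk+/+ mice (SD, n = 4 each), with Ptprc the most abundant. The 7 macrophage genes, led by Csf1r, summed to 9211 ± 1399 and 7903 ± 2098. The 5 T cell genes, led by Cd4, summed to 174 ± 38 and 208 ± 59.4, with a log2 difference below 0 in 5 of 5 (median -0.23). Of the neutrophil genes Ly6g was the most abundant, with 3851 ± 607 and 5161 ± 900 normalized counts (log2 difference -0.42, SE 0.14, exact permutation p = 0.0571, limma adjusted p = 0.42), while S100a8 (4.81 ± 3.397 and 2.25 ± 1.55, exact permutation p = 0.486) and S100a9 (7.78 ± 6.01 and 4.79 ± 2.43, exact permutation p = 0.714) had higher means in penk-/- mice. The listed neutrophil genes thus had no common direction. Ly6g lay far above S100a8 and S100a9, and whether its reads came from neutrophils was not tested.

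Fat genes had the largest median difference of the marker lists. All 4, Fabp4, Adipoq, Plin1 and Cidec, had a log2 difference above 0 (median 0.82, against 0.88 for Cpa3 and 0.01 over all genes), with sums of 3602 ± 3403 normalized counts in penk-/- and 1720 ± 1051 in penk+/+ mice. The penk-/- sum was highest in replicate 3, the library also highest in Cpa3, and the sums of the other penk-/- libraries lay within the range of penk+/+ mice. Mesothelial genes, led by Upk3b, had a log2 difference below 0 in 4 of 4 (median -0.37), with sums of 440 ± 250.96 and 659 ± 405. The 8 smooth muscle genes summed to 225445 ± 46575 and 211599 ± 41006, and the 8 epithelial genes to 411912 ± 52439 and 456697 ± 29676. Connective tissue genes, led by Col3a1, summed to 62852 ± 10536 and 53559 ± 12874, with a log2 difference above 0 in 6 of 6 (median 0.21). It was above 0 in 5 of 8 smooth muscle genes (median 0.04), in 1 of 8 epithelial genes (median -0.16), in 4 of 4 enteroendocrine genes (median 0.07) and in 1 of 4 genes of interstitial cells of Cajal (median -0.11). None of the tested genes of these lists passed an adjusted p below 0.05. The basophil genes Cd200r3 and Il3ra summed to 116 ± 2.13 and 118 ± 23.4, mostly Il3ra, and the eosinophil genes to 42.8 ± 5.61 and 46.2 ± 12.7, led by Siglecf. With the muscle score minus the epithelial score as a covariate, the log2 difference of Cma1 was -0.84 (adjusted p = 0.226), that of Tpsb2 1.07 and that of Cpa3 0.80.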

How the data were processed

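RNA-seq was performed on colon biopsies of 4 penk-/- and 4 penk+/+ mice. Per the labels and methods, libraries were of poly-A RNA, stranded and read from both ends, and the authors used FastQC and then STAR 2.7.8a on GRCm39 (Ensembl release 107) and DESeq2 1.30.0. The values they deposited are a signal in normalized counts, that is, counts scaled by each library's size factor. All values were whole multiples of a step of 0.727 to 1.24 normalized counts (tolerance 0.1), which gave the reads quoted. In penk-/- replicate 1 the step, 1.01, is too close to 1 to establish that whole reads were recovered. The reads of that library are less certain, and no count model was fitted. Reads per library were 33.1 M to 50.7 M, and member genes of low value are limited by counting error. Genes were named and placed with GENCODE M39, and 25776 of 26008 identifiers matched. No library was left out.

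The main test was limma 3.58.1 (R 4.3.3, trend) on log2(value + 1), for 19127 genes with a mean of at least 10, without covariates, two-sided, with Benjamini-Hochberg adjustment. Fold changes on this scale understate low genes. Members, ratios and correlations were tested by exact permutation with Python 3.11.15. P-values measure the spread between these mice. Counts were also simulated for penk-/- against penk+/+. A change of 1 log2 unit was recovered in 64.3% of changed genes and one of 2 units in 90.9%. There were 11 false calls, with 18933 genes tested including the changed ones. The changed genes were drawn at random from all genes with a mean of at least 10. No separate share was obtained for genes as low as most members, so these shares do not describe the members.

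The members and lists were chosen with earlier results of these data known. The genes named are the members, fixed genes of the pathway list, its other genes with an adjusted p below 0.05 or otherwise the 3 with the smallest p (Hpgds, Cd200r3 and Plcg1), the 10 genes most like Cpa3, the most abundant marker of lists given, Penk and Pbsn. Krt1, Krt5, Krt14, Adipoq, Plin1, Cidec, Il3ra, S100a8 and S100a9 were named after their values were seen or as members of a marker list. Alternatives were other pseudocounts, filters and scaling, no trend, a replicate block, covariates and libraries left out. The fit without the Pbsn-rich libraries for the correlations was added after the data were seen.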

Additional observations from a re-analysis of the deposited data

Results flagged for a closer look

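In groups of 4 libraries, a library was marked when its gap to the nearest other was past Dixon's 95% limit for 4 samples, as a share of the range of its group. Of 56 groups examined, 3 were marked, where chance marks about 1 in 20. Mcpt2 in penk-/- replicate 2, with 0 reads against 8 to 10 in the other penk-/- libraries, had a gap of 0.924 of the range. Fcer1a in penk+/+ replicate 4, the only penk+/+ library with reads of this gene (3 reads), had a gap of 1.0, the whole range. With 0 reads in the other penk+/+ libraries, any count above 0 gives this gap. A total of 3 reads is also within what a count of 0 allows, so this mark carries no weight. The summed connective tissue markers (Col1a1, Col1a2, Col3a1, Dcn, Lum and Pdgfra) were low in penk-/- replicate 1, at 47122 normalized counts against 67142 to 69499 in the other penk-/- libraries, with a gap of 0.911. Cma1 was also lowest in that library, and the log2 difference of Cma1 without it was -0.52.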

How the results depend on the processing

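The other settings were a pseudocount of 0.1 or 8, a filter at a mean of 50 or none, quantile normalization, no trend, Pbsn or the muscle-minus-epithelium score as a covariate, both Pbsn-rich libraries left out, a replicate block, and each library left out in turn. The planned edgeR and DESeq2 count fits on recovered reads were not run, because the recovery of whole reads was not established in penk-/- replicate 1. No member and no pathway gene passed an adjusted p below 0.05 under any of the limma fits run. Over these fits Cma1 stayed between -0.999 and -0.52 on the log2 scale, Tpsb2 between 0.77 (pseudocount 8) and 1.64, Cpa3 between 0.49 and 1.26, and Mcpt4 between 0.62 and 2.05 (0.68 with pseudocount 8). Other genes that moved by over 1.5 times without 1 library were Srgn (0.0080 without penk+/+ replicate 1, up to 0.34), Il1rl1 (-0.75 without penk-/- replicate 3, to -0.28) and F2rl1 (-0.087 without penk-/- replicate 3, to -0.34), Fcer1g (0.10 to 0.27), Slc18a2 (0.056 to 0.16), Tph1 (0.034 to 0.16), Hrh2 (0.31 to 0.72), Tpsab1 (0.39 to 1.07), Fcer1a (0.80 to 1.84) and Ms4a2 (-1.04 to -0.24). The pseudocount moved the genes with few reads further. With pseudocounts of 0.1 and 8, Tpsab1 was 1.99 and 0.15, Fcer1a 2.76 and 0.37, and Ms4a2 -1.33 and -0.14. Genes below a mean of 50, and Mcpt4 without the Pbsn-rich libraries, have no value under the fits that filter them out.

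Over all genes, the count with an adjusted p below 0.05 was 0 and became 1 with quantile normalization, 1 with the replicate block, 1 with the muscle-minus-epithelium score (also the 1 gene past the thresholds of the study), and 0 to 6 without 1 library, the 6 without penk-/- replicate 1. Genes with an unadjusted p below 0.05 numbered 1842, 2938 with the replicate block, and 1379 to 2223 without 1 library. Pathway genes past that limit numbered 5, 8 with the replicate block, and 3 to 10 without 1 library (10 without penk-/- replicate 1, 3 without penk-/- replicate 4 or penk+/+ replicate 1). The labels do not say that libraries of the same number belong together, and whether they shared a batch was not tested. Same-numbered libraries deviated with r of 0.15, -0.04, -0.32 and -0.16, and no penk-/- library correlated best with the penk+/+ library of its number. The replicate block left the log2 ratios of Mcpt4 to Mcpt1 and Mcpt2 at 1.15 (p = 0.375, exact sign flips) and 1.52 (p = 0.5, exact sign flips), where 4 pairs allow no p below 0.125.

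Signs turned for the following genes, and the cause was not tested. Mcpt1 was -0.11 without the Pbsn-rich libraries and -0.23 to 0.37 without 1 library, Hdc -0.040 to 0.30 (0.41 without the Pbsn-rich libraries), Kit -0.16 to 0.020, Gata2 -1.20 to 0.75, Ndst2 -0.0023 to 0.056 (0.064 without the Pbsn-rich libraries), Hrh1 -0.19 to 0.0024 (0.052 without the Pbsn-rich libraries), and Hnmt -0.093 to 0.15 (-0.034 with the muscle-minus-epithelium score, -0.048 without the Pbsn-rich libraries). Mcpt2 was 0.014 with a pseudocount of 8, -0.93 with a pseudocount of 0.1, and -0.54 to 0.56 without 1 library. The differences in the log2 ratios did not turn sign under the settings run. That of Mcpt4 to Mcpt1 was 0.45 to 2.28 without 1 library, and that of Mcpt4 to Mcpt2 0.60 to 2.22, with 0.61 and 0.67 for a pseudocount of 8. Without the Pbsn-rich libraries they were 1.72 (exact permutation p = 0.1, the smallest that 3 libraries against 3 allow) and 2.01 (exact permutation p = 0.3).

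The correlation of Cpa3 with Mcpt4 (0.87) and Tpsb2 (0.85) no longer passed an adjusted p of 0.05 without the 2 libraries farthest from the median, nor without the Pbsn-rich libraries (0.93 and 0.88), both with 6 libraries. Ms4a2 turned to -0.031 and -0.016 under these choices, Mcpt1 to 0.27 without the Pbsn-rich libraries, and Cma1 to 0.22 when centred on genotype means.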

Other observations

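As an addition made after the data were seen, the genes most like Cma1 over the 8 libraries were listed in the way used for Cpa3. The first was Gm33167 (Pearson r = 0.95), with 12.1, 18.3, 21.8 and 23.2 normalized counts in penk-/- and 41.1, 26.6, 49.1 and 30.0 in penk+/+ mice. The unnamed gene ENSMUSG00000120954 (0.95), Lypd1 (0.93), Fbxw4 (0.92), Prkca (0.92), Tceal1 (0.92) and Ppp1r15a (0.92) followed, of which Prkca, a protein kinase C, ranged from 3261 to 4391 normalized counts. None of the 10 genes most like Cma1 was among the 10 most like Cpa3. This follows from the r of -0.18 between Cma1 and Cpa3 and is not a separate result. Of the mast cell genes, Il1rl1 had r = 0.66 with Cma1 and was the 712th most like it of 19126 genes, Kit had 0.50, and Mcpt4, Tpsb2 and Hdc had -0.30, -0.38 and -0.24. These coefficients describe 8 libraries and were not tested.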
